A study of Mus musculus with 12 samples.

Results

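The genes described here are 7 autosomal genes grouped as dosage-sensitive genes of dominant disorders in people: Bag3, Tgfbr2, Zeb2, Mll1 (now Kmt2a), Mll2 (the Kmt2d locus), Scn2a1 and 1700081L11Rik (now Kansl1). They were taken by name from the allelic expression table and hold 8 of its 14899 rows, because Zeb2 has a second, short row. The RNA came from hybrid mouse cells with 1 set of chromosomes from 129Sv and 1 from Cast/EiJ, so that a read over a strain difference shows the allele it came from. Clonal neural progenitor cell (NPC) lines had been grown from 2 embryonic stem (ES) cell lines of that genotype. Clones 129, C2, G4 and E1.2 are XX, and clones mC3, mE6, mB4 and mG3 are XY, 4 of each. Their parents were the XX line F1-21.6 and the XY line F1-23, which were kept on growth-arrested mouse embryonic fibroblasts with the cytokine LIF. Polyadenylated RNA was read as 100-base pairs. Each clone and each line gave 1 library, so a value of a single clone has no replicate error, and each ES group is 1 line. Clone 129 shares its name with the 129 strain, and "129 share" always means the share of allele counts from the 129Sv chromosome.

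A dominant disorder caused by loss of 1 copy means that the remaining copy does not supply enough product. Random monoallelic expression, in which a cell and its descendants transcribe a gene from only 1 parental chromosome, leaves such a gene with 1 copy in use without any mutation. Whether a clone that uses 1 allele keeps the level of clones that use both is therefore the question put to these genes. BAG3 is a co-chaperone that hands damaged proteins to autophagy. TGFBR2 is the receptor subunit that binds TGF-beta. ZEB2 is a SMAD-binding transcription repressor of the neural crest and brain. MLL1 and MLL2 are histone H3 lysine methyltransferases, SCN2A is a neuronal voltage-gated sodium channel, and KANSL1 is the scaffold of the NSL histone acetyltransferase complex.

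The single-allele state was seen in Bag3 and Tgfbr2, and the row with the most allele counts, 1700081L11Rik, used both alleles everywhere. The 250 bases before the row start of these 3 genes are shown with their CpG content. They are from the mm9 reference strain, not from 129Sv or Cast/EiJ, are written 5′ to 3′ on the gene's strand, and have CpG dinucleotides in capitals. The windows are chr7:135666847-135667096 (plus strand) for Bag3, chr9:116084482-116084731 (minus strand) for Tgfbr2 and chr11:104330778-104331027 (minus strand) for 1700081L11Rik. The row of Bag3 starts at the annotated gene start. Those of Tgfbr2 and 1700081L11Rik start upstream of it, at 116084481 against 116084383 and at 104330777 against 104330175.
Bag3: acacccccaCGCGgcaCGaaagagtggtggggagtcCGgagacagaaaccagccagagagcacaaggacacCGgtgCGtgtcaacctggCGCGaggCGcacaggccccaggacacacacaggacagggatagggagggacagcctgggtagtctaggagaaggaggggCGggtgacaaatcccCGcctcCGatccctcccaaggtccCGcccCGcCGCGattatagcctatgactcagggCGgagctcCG
Tgfbr2: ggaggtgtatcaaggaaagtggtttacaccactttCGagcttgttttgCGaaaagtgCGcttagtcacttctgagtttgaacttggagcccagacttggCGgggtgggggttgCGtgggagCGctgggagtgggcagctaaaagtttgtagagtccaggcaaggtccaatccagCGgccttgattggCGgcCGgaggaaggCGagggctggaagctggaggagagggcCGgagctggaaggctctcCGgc
1700081L11Rik: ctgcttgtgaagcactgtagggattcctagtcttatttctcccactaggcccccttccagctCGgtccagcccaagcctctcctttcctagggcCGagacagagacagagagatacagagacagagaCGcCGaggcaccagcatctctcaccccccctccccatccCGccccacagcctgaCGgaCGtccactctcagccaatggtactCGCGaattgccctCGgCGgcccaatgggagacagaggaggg
The Bag3 window held 18 CpG, and 25.5% of the windows before 22375 protein-coding starts of the GENCODE annotation held at least as many. Tgfbr2 held 12 (41.1% of windows held as many) and 1700081L11Rik held 11 (44.0%). The median window held 8. The windows of the 22375 starts were set at annotated starts, so the percentages of Tgfbr2 and 1700081L11Rik compare windows set differently. Bag3 is a known target of heat shock factor, so both arrangements of a pair of its half-sites, GAANNTTC and TTCNNGAA, were searched. Each is its own reverse complement, so 1 search covers both strands. Neither was found in the windows of the 7 genes, and 12.2% of all windows held at least 1 of them. That says only that these letters are not in these windows. For Zeb2 and Scn2a1 the window was set at the annotated start. For Mll2 and Mll1 it was set at the row start, upstream of the annotated start (98704472 against 98701614 and 44689659 against 44689379).

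Total allele counts ran from 61375911 in the XX ES line to 119266777 in clone E1.2, and the median autosomal 129 share was between 49.9% and 50% in every library. Of the neural progenitor markers, 12 of 13 were in the table, with a summed level of 4066 to 7094 FPKM (sequenced fragments corrected for transcript length and depth) in NPC clones and 376 to 425 FPKM in ES lines. Of the ES cell markers, 4 of 10 were in the table, at 2.09 to 4.65 FPKM in NPC clones and 345 to 560 FPKM in ES lines. Fibroblast markers (9 of 11 in the table) summed to 42.1 FPKM in E1.2 and to between 1.48 and 8.08 FPKM in the other 7 NPC clones, against 43.6 FPKM in F1-21.6 and 107 FPKM in F1-23. In bulk RNA, fewer cells of a type and less RNA per cell cannot be told apart.

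A gene was taken as testable in a library with at least 20 allele counts. It was called single-allele where 85% or more of its counts belonged to 1 allele and an exact binomial test against balance passed an adjusted p of 0.05 in that library, and biallelic where neither allele had over 70%. Over the 8 NPC clones, 63 of the 64 member values were testable. Of these, 5 were single-allele (7.94%), against 6.79% of all testable autosomal values, and 56 were biallelic, against 85.4% in the background. The single-allele share of these genes thus lay near that of all genes. The 5 values belong to Bag3 in 4 clones and Tgfbr2 in 1 clone. The other 2 values, both of the short Zeb2 row, lay between the calls. 5 rows were biallelic in all 8 clones, against 70.2% of genes biallelic in all their testable clones: Zeb2, Mll1, Mll2, Scn2a1 and 1700081L11Rik.

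**Figure D1:**
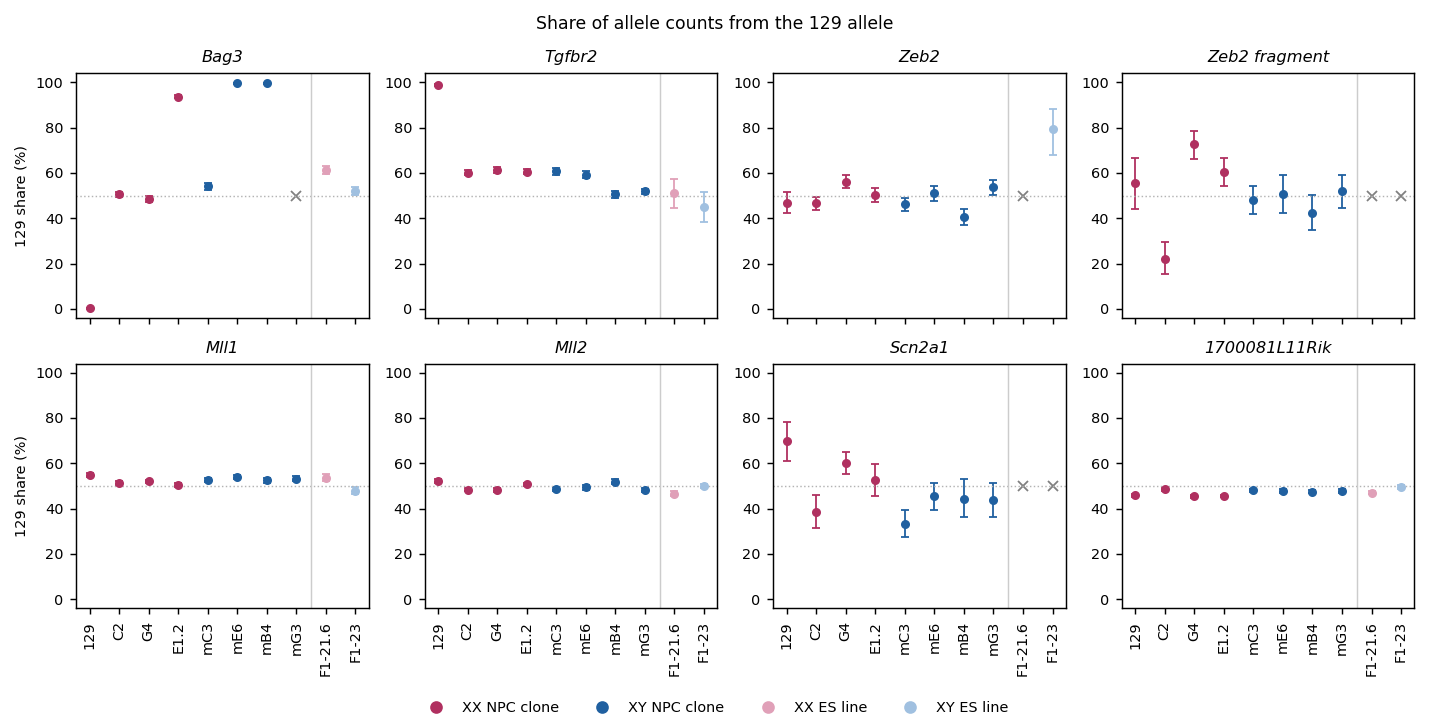
The 129 share in percent (vertical axis) of the 8 rows in the 8 NPC clones and the 2 ES lines (horizontal axis), with exact 95% binomial intervals for counting error; a grey cross marks a library with under 20 counts, placed at the middle with no value. Bag3 lies near 0% in clone 129 and above 90% in E1.2, mE6 and mB4, Tgfbr2 lies at 98.9% in clone 129, and the lower row of panels stays between 33.3% and 70% in all NPC clones.

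Bag3 (chromosome 7, 135667097 to 135690493, plus strand, mm9) switched between both extremes. In clone 129 its 129 share was 0.276% of 2536 counts (exact 95% interval 0.111 to 0.568), so that nearly all of its RNA came from Cast. In the XY clones mE6 and mB4 the share was 99.6% of 2115 counts and 99.7% of 2533 counts, and nearly all came from 129. In E1.2 it was 93.7% of 3708 counts, with 6.31% left for Cast, so that E1.2 was not single-allele where 95% was asked for. This clone also had the highest summed fibroblast markers of the NPC clones, 42.1 FPKM, and their part in the remaining Cast counts was not tested.

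The other clones C2, G4 and mC3 used both alleles of Bag3, with 129 shares of 50.5%, 48.6% and 54.1%. Both ES lines did so too, at 61.4% in F1-21.6 and 52.0% in F1-23. Use of 129 alone in some clones and of Cast alone in others was found in 1.8% of the 12108 genes testable in at least 6 clones. The shares of Bag3 differed among clones beyond the spread of genes of like depth (overdispersion-scaled chi-square test, adjusted p = 1.45e-154), a call made for 19.7% of the 12103 genes tested. That scaling was large, since the allele counts of genes of this depth varied 12.4 times as much between clones as binomial counts would. The binomial intervals of single shares therefore understate the error.

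The level of Bag3 was lower in the clones that used 1 allele. The 4 single-allele clones had 13.7 FPKM (clone 129), 11.6 FPKM (E1.2), 9.90 FPKM (mE6) and 13.2 FPKM (mB4), while the biallelic clones had 22.8 FPKM (C2), 22.0 FPKM (G4) and 20.4 FPKM (mC3). All single-allele values lay below all biallelic ones, with no overlap. Relative to the biallelic median of 22.0 FPKM, the single-allele clones stood at 62.3% (129), 52.8% (E1.2), 45.0% (mE6) and 60.3% (mB4). Clone 129, which used Cast, had the highest of the 4 levels, close to that of mB4, which used 129.

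On the log2(FPKM + 1) scale the mean difference of Bag3, single-allele minus biallelic clones, was -0.82, and with biallelic clones of the same line only it was -0.78. The states were read from the same libraries, so this is a description with no test. Among 2045 autosomal genes with both kinds of clone, 30.6% had a mean difference of -0.5 or less, 42.3% had every single-allele clone below every biallelic one, and the median was -0.16. Of the 169 such genes with at least 3 clones of each kind, 33.1% had the single-allele clones all below. A difference at least as negative as that of Bag3 was found in 17.8% of the 2045 genes. These shares depend on the scale and the depth: 46.3% had a difference of -0.5 or less and 27.1% one as negative as Bag3 at a minimum of 100 counts, 48.7% and 31.0% with a pseudocount of 0.1, and 56.0% and 38.0% on CPM.

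Counted by allele, the Bag3 copy in use lay near its level in biallelic clones. In clone 129 the Cast allele gave 38.0 CPM (allele counts scaled to the library total), against a median of 30.2 (25.2 to 31.7) for the same allele in the 3 biallelic clones, a ratio of 1.26. The 129 allele gave 29.1 CPM in E1.2, 25.6 in mE6 and 35.0 in mB4, against a median of 29.95 (29.6 to 30.8) in the biallelic clones. These are ratios of 0.972, 0.856 and 1.17. The mean log2 ratio of Bag3 was 0.07, and the median of the 2045 genes was 0.15 (quartiles -0.46 and 0.80).

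**Figure D2:**
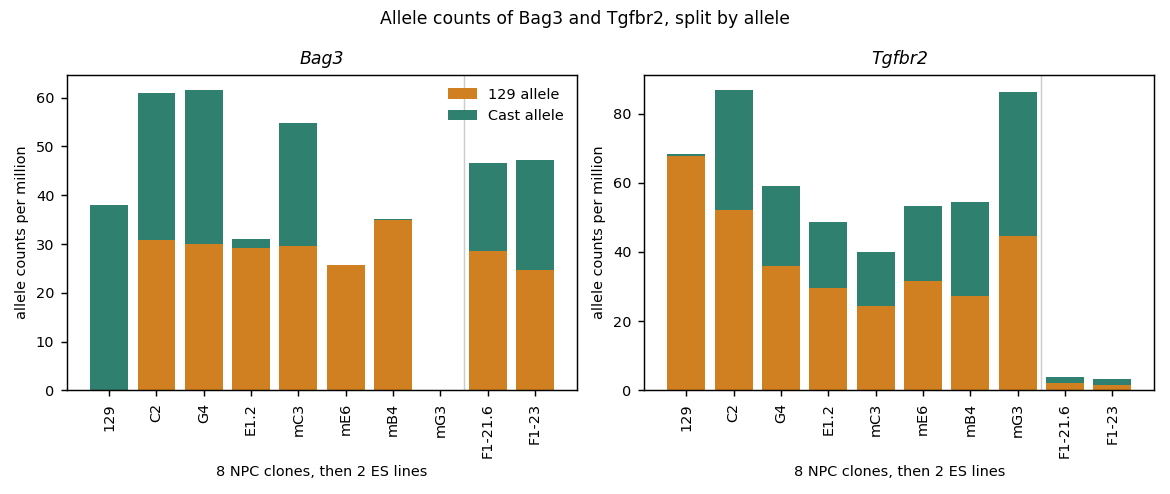
Allele counts in CPM (vertical axis, starting at 0) of Bag3 and Tgfbr2 in the 8 NPC clones and the 2 ES lines, stacked by allele, with 1 library per bar. In Bag3 the total drops where 1 allele is missing and the allele in use stays between 25.6 and 38.0 CPM, while in Tgfbr2 the single 129 allele of clone 129 gives 67.6 CPM, more than both alleles together in 5 of the other clones.

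A separate case was clone mG3, in which Bag3 had only 4 allele counts (0.0304 FPKM) and no allele call could be made. The other 7 clones had between 2115 and 6298 counts. Under 20 counts in exactly 1 clone with at least 1000 in each of the other 7 was found for 23 of 14415 autosomal genes (0.16%), of which 21 were in clone 129, and in mG3 for Bag3 alone (0.00694%). In the count test of each clone against the other 7, with the line as a covariate, Bag3 in mG3 was -9.70 ± 0.96 (log2, SE) and did not pass (edgeR quasi-likelihood test, adjusted p = 0.0804), a test that called 1 of 13591 genes (0.00736%) in this clone. The log2 difference of Bag3 in mG3 was -9.74 with DESeq2 and -3.86 with limma on log2(FPKM + 1). With edgeR it was -9.93 to -9.36 when another clone was left out. It passed with DESeq2 and not with edgeR or limma, so the call depended on the tool.

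The same test gave no call for Bag3 in the single-allele clones either, with log2 differences of -0.49 ± 2.01 in clone 129, -0.73 ± 2.08 in E1.2, -0.23 ± 2.05 in mE6 and 0.41 ± 1.97 in mB4 (SE, edgeR adjusted p from 0.903 to 1). Calls were made for 1.46% of genes in clone 129, 0.0515% in E1.2 and 0% in mE6 and mB4, where 154 and 216 genes had an unadjusted p under 0.05, DESeq2 called 29 and 18 and limma 3 and 2. Without mG3 the differences were -0.51 ± 0.52 in clone 129, -0.71 ± 0.50 in E1.2, -0.82 ± 0.51 in mE6 and -0.17 ± 0.59 in mB4 (SE). The errors were thus far smaller, the sign in mB4 turned, and none passed (edgeR adjusted p from 0.555 to 1).

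The genes around Bag3 were compared to see how far the allele pattern reached. Tial1, an RNA-binding protein gene 62 kb upstream, had 129 shares of 47.2% to 51.6% in all 8 clones, and its shares did not differ among clones (adjusted p = 1). On the other side, 64 kb away, Inpp5f, an inositol polyphosphate phosphatase gene with a known paternally expressed isoform in mouse brain, had 27.4% in mE6, 26.6% in mB4 and 25.8% in mG3, against 42.8% to 52.4% in the other 5 clones (heterogeneity adjusted p = 2.59e-44). Mcmbp, which encodes a binding protein of the MCM replication complex and lies 147 kb away, had 39.2% in mE6, 38.2% in mB4 and 37.8% in mG3, against 47.3% to 52.1% in the others (adjusted p = 1.94e-13). Sec23ip, 198 kb away, was near balance again, at 45.4% to 49.99%.

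The clones with the lower 129 shares of Inpp5f and Mcmbp were thus the XY clones in which Bag3 was read from 129 alone or was nearly silent, so the 129 shares of these neighbours lay on the other side of balance from that of Bag3 in mE6 and mB4. Clones 129 and E1.2, the single-allele clones of the XX line, had Inpp5f at 52.4% and 52.3%. Inpp5f stood at 25.1, 25.5 and 26.9 FPKM in mE6, mB4 and mG3, at 34.3 FPKM in mC3 of the same line, and at 8.79 to 22.8 FPKM in the XX clones. Tgfb1i1, a focal adhesion gene 269.9 kb upstream of Bag3, had 72.8% (mC3), 74.1% (mE6), 68.3% (mB4) and 89.6% (mG3) in XY clones, while XX clones ran from 48.3% to 57.5% (adjusted p = 4.81e-16).

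**Figure D3:**
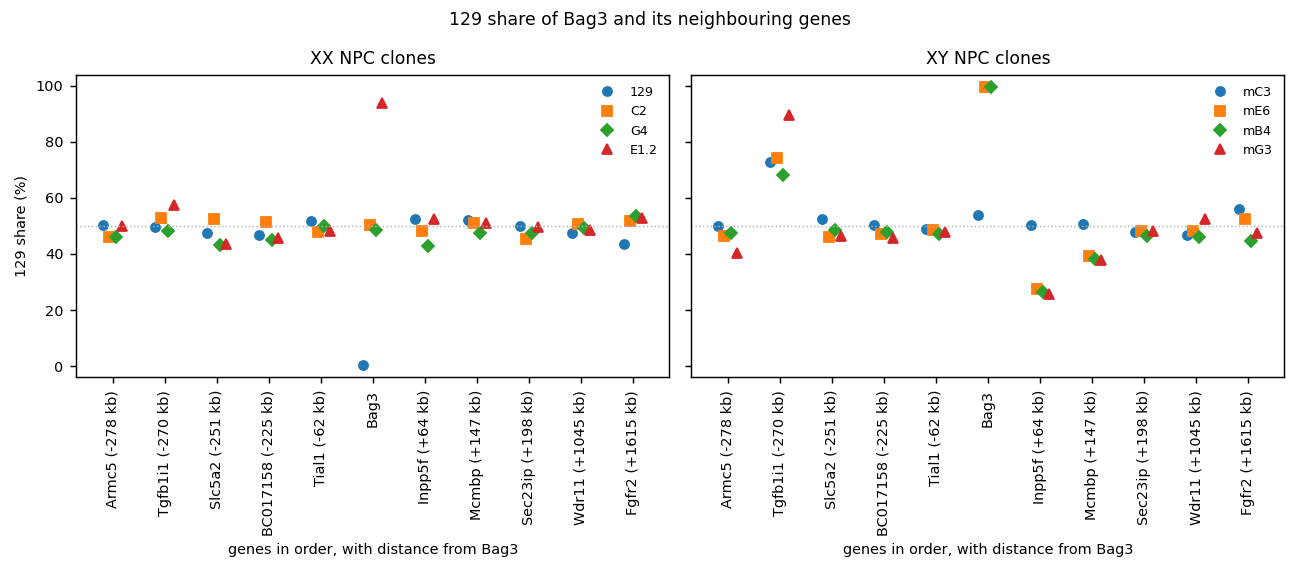
The 129 share in percent (vertical axis) of Bag3 and, on each side, the 5 nearest genes with at least 100 counts in all 8 clones, in chromosome order (horizontal axis, with distance in kb), for XX clones on the left and XY clones on the right; each symbol is 1 clone. Inpp5f and Mcmbp lie below 40% in mE6, mB4 and mG3, while Tial1 and Sec23ip stay between 45% and 52% in every clone.

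By allele pattern over the 7 clones with a Bag3 share, the most alike of 10006 autosomal genes were Slc38a1, a glutamine transporter (mean absolute difference of 11.2 percentage points), Smug1, a uracil DNA glycosylase (11.5 points), and Nuak2, a stress-activated kinase (15.3 points). Slc38a1 had a 129 share of 0.0596% in clone 129, 94.0% in mE6 and 92.6% in mB4, but 57.1% in E1.2 and 23.9% in G4. None followed Bag3 in every clone.

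Tgfbr2 (chromosome 9, 115996813 to 116084481, minus strand) was single-allele in clone 129 alone, where 98.9% of 4557 counts came from 129 (95% interval 98.5 to 99.1). The other XX clones stood at 60.1% (C2), 61.2% (G4) and 60.6% (E1.2). The XY clones stood at 60.8% (mC3), 59.3% (mE6), 50.5% (mB4) and 51.8% (mG3), and the ES lines at 51.0% (F1-21.6) and 44.8% (F1-23). The biallelic clones thus fell into a set of 5 near 60% and a pair near 51%. The shares differed among clones (overdispersion-scaled chi-square test, adjusted p = 2.95e-44), and still did so without clone 129 (adjusted p = 0.0108).

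Unlike Bag3, the level of Tgfbr2 in its single-allele clone stood within the range of the biallelic clones. Clone 129 had 22.2 FPKM, against 31.8 (C2), 18.6 (G4), 17.4 (E1.2), 14.8 (mC3), 17.9 (mE6), 20.3 (mB4) and 28.2 FPKM (mG3). That is 119% of the biallelic median of 18.6 FPKM, or 0.24 on the log2(FPKM + 1) scale. The count test of clone 129 against the other clones gave 0.02 ± 0.44 (log2, SE, edgeR adjusted p = 0.987). That error leaves room for a change in either direction, so the test does not show an equal level.

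The 129 allele of Tgfbr2 gave 67.6 CPM in clone 129, against a median of 31.6 (24.3 to 52.2) in the 7 biallelic clones, 2.14 times as much. The value in clone 129 was above that of each biallelic clone, the nearest being C2. Relative to biallelic XX clones only, the log2 ratio was 0.91 in place of 1.1. A ratio of at least 2 was found for 20.7% of the 2045 genes with both kinds of clone. Bag3 and Tgfbr2 thus stood on different sides of the gene median in level, with 91.3% of genes at or below the level difference of Tgfbr2, though this rests on 1 clone for Tgfbr2.

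**Figure D4:**
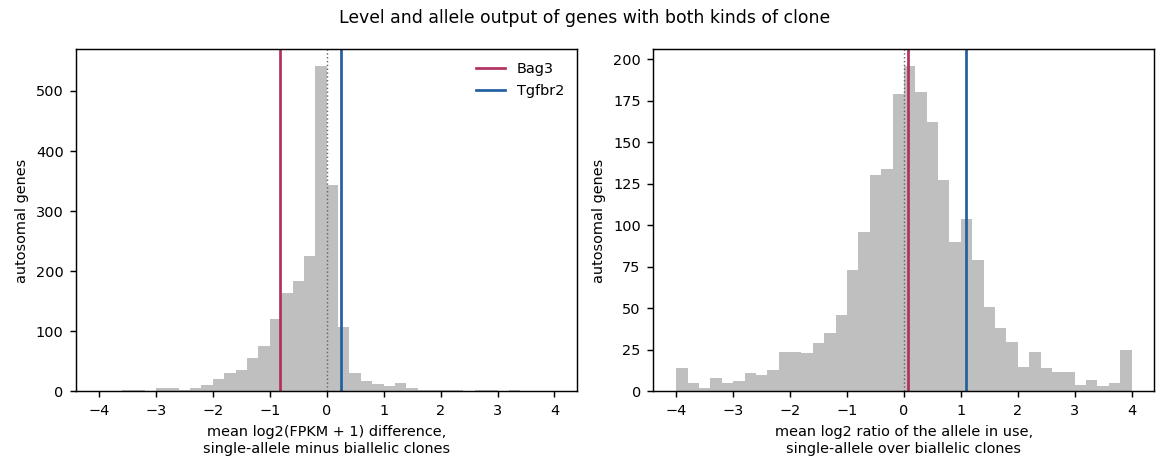
Histograms of autosomal genes with both single-allele and biallelic clones (vertical axes, 2045 genes each), by the mean log2(FPKM + 1) difference of single-allele minus biallelic clones (left) and by the mean log2 ratio of the allele in use (right), with values beyond 4 put in the outer bins. Coloured lines mark Bag3 at -0.82 and 0.07 and Tgfbr2 at 0.24 and 1.1.

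The genes next to Tgfbr2 did not share the pattern of clone 129. Stt3b, an oligosaccharyltransferase gene 777 kb away, had 129 shares of 47.8% to 51.1% over the 8 clones, and Rbms3, an RNA-binding protein gene 397 kb away, had 49.5% to 57.9% (heterogeneity adjusted p = 1 for Stt3b and 0.229 for Rbms3). The genes with the most alike allele pattern over 8 clones were Cnot8, a deadenylase subunit (mean absolute difference of 3.22 points), Zfp825, a zinc finger gene (3.24 points), and Tmx3, a thioredoxin-related protein of the endoplasmic reticulum (3.26 points). Their 129 shares in clone 129 were 99.6%, 100% and 100%. In level, Cnot8 had 17.0 FPKM in clone 129 and 29.99 to 37.2 FPKM in the other clones. Tmx3 had 9.32 FPKM in clone 129 and 23.2 to 31.2 FPKM in the others. The gap was small for Zfp825, with 5.32 FPKM in clone 129 and 5.65 to 7.81 FPKM in the others.

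Zeb2 (chromosome 2, 44839095 to 44968799, minus strand) used both alleles in all 8 clones, with 129 shares of 46.9% (129), 46.5% (C2), 56.2% (G4) and 50.2% (E1.2) in XX clones, and of 46.1% (mC3), 51.0% (mE6), 40.7% (mB4) and 53.6% (mG3) in XY clones. These did not differ among clones beyond the spread of like genes (adjusted p = 0.894). Its level ran from 6.93 to 11.6 FPKM. In the ES line F1-23, with 68 counts, the 129 share was 79.4% (95% interval 67.9 to 88.3). That line had the highest fibroblast marker sum, and the part of feeder cells in this share was not tested.

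The short Zeb2 row (44841929 to 44844652) covers 2724 bases inside an exon of Zeb2, of which 2167 are untranslated. It gave 81 to 266 counts per clone. Its 129 share was 21.8% of 142 counts in C2 (95% interval 15.3 to 29.5) and 72.7% of 220 counts in G4 (66.3 to 78.5), and 42.4% to 60.5% in the other 6 clones. The differences did not pass (adjusted p = 0.288), except at a minimum of 100 counts (0.0393). Reads of this row and of the main Zeb2 row cannot be assigned apart with certainty, because the rows overlap. FPKM was 1.33e-09 in C2 and 2.01e-05 in mE6 in spite of 142 and 140 allele counts there, so the FPKM of this row is not read as a level.

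Mll1 (chromosome 9, 44611438 to 44689659, minus strand) and Mll2 (chromosome 15, 98662075 to 98704472, minus strand) were balanced in every clone. The 129 share of Mll1 was 50.3% to 54.8% over 6978 to 14673 counts, and that of Mll2 was 48.2% to 52.2% over 8313 to 20892 counts. 1700081L11Rik (chromosome 11, 104194543 to 104330777, minus strand) had 45.4% to 48.5% over 15608 to 28493 counts, on the Cast side of balance in all 8 clones and in both ES lines. None of these differed among clones (adjusted p = 1 for each).

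Scn2a1 (chromosome 2, 65506785 to 65605504, plus strand) was read far less, with 120 to 396 counts per clone. Its 129 shares were 70% (129), 38.4% (C2), 60.1% (G4) and 52.6% (E1.2) in XX clones, and 33.3% (mC3), 45.4% (mE6), 44.4% (mB4) and 43.8% (mG3) in XY clones. Although these ran from 33.3% to 70%, they did not differ beyond the spread of genes of like depth (adjusted p = 0.620). The value of clone 129 lay at the edge of the biallelic call, and its 95% interval ran from 61.0 to 78.0.

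In NPC clones against ES lines, 5 of the 8 rows passed the count test, all higher in NPC (edgeR quasi-likelihood test with the line as covariate, adjusted p of 0.05 or less). This test called 63% of the 14561 genes tested, 33.3% higher and 29.7% lower. Tgfbr2 had 14.8 to 31.8 FPKM in the 8 clones and 1.11 and 0.933 FPKM in F1-21.6 and F1-23. Its log2 difference was 4.24 ± 0.36 (SE, adjusted p = 1.57e-05).

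Zeb2 had 9.11 ± 1.5 FPKM in NPC clones (SD, n = 8), against 0.175 and 0.376 FPKM in the ES lines, a log2 difference of 4.64 ± 0.77 (SE, edgeR adjusted p = 0.000661). Its count was 68 in F1-23 and 5 in F1-21.6, and the log2 difference was 7.08 without F1-23 and 3.58 without F1-21.6 and passed in both. Scn2a1 had 1.07 ± 0.27 FPKM in NPC clones (SD, n = 8) and 0.111 and 0.0319 FPKM in the ES lines. With 1 count in each ES line, its mean CPM in NPC clones was 154 times that of the ES lines, with an exact 95% counting interval of 42.6 to 1270. For the short Zeb2 row, which had no count in either ES line, the level in NPC clones was 84.8 times a floor of 3 counts over both lines. The lower end of its counting interval was 68.9. The call of this row did not hold with limma on its FPKM (adjusted p = 0.153 with a pseudocount of 1 and 0.250 with 0.1).

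Mll1 was also higher in NPC clones, with 13.9 ± 2.1 FPKM (SD, n = 8), against 6.81 and 7.86 FPKM in the ES lines. Its log2 difference was 0.85 ± 0.15 (SE, edgeR adjusted p = 0.00118), with 0.53 without F1-21.6 and 1.24 without F1-23, and it passed in both. Library codes start with GEI for the XX clones and with GUR for the XY clones and ES lines. Libraries with the same prefix are called a library set here, and the labels do not say what the prefix stands for. The 5 calls also passed with only the libraries of the set shared by XY clones and ES lines, where the log2 differences were 4.16 for Tgfbr2, 4.46 for Zeb2, 7.34 for Scn2a1 and 0.66 for Mll1 (edgeR adjusted p from 0.000125 to 0.0065).

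Bag3, Mll2 and 1700081L11Rik did not pass. Bag3 had 0.0304 to 22.8 FPKM in NPC clones and 15.9 and 15.7 FPKM in the ES lines (log2 -0.20 ± 1.22, edgeR adjusted p = 0.894). The ES values lay above the 4 single-allele NPC clones and below the 3 biallelic ones. 1700081L11Rik was the steadiest of the genes, with 20.5 ± 1.4 FPKM in NPC clones (SD, n = 8) and 18.5 and 16.6 FPKM in ES lines (log2 0.17 ± 0.11, edgeR adjusted p = 0.209). Mll2 gave 0.04 ± 0.14 (adjusted p = 0.808), but the lines went apart. The XX clones had 12.05 ± 0.81 FPKM (SD, n = 4) against 9.14 FPKM in F1-21.6, and the XY clones had 7.55 ± 0.53 FPKM (SD, n = 4) against 9.10 FPKM in F1-23. Within the library set of XY clones and ES lines, Mll2 was lower in NPC (log2 -0.30, edgeR adjusted p = 0.0251), while without F1-23 it was higher (log2 0.42, edgeR adjusted p = 0.0183). The XX clones belong to another library set than both ES lines, so their difference from F1-21.6 crosses library sets. The test of the line by cell type interaction, chosen after the data had been seen, gave 0.67 ± 0.16 and did not pass (adjusted p = 0.154). It called 0.103% of genes.

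**Figure D5:**
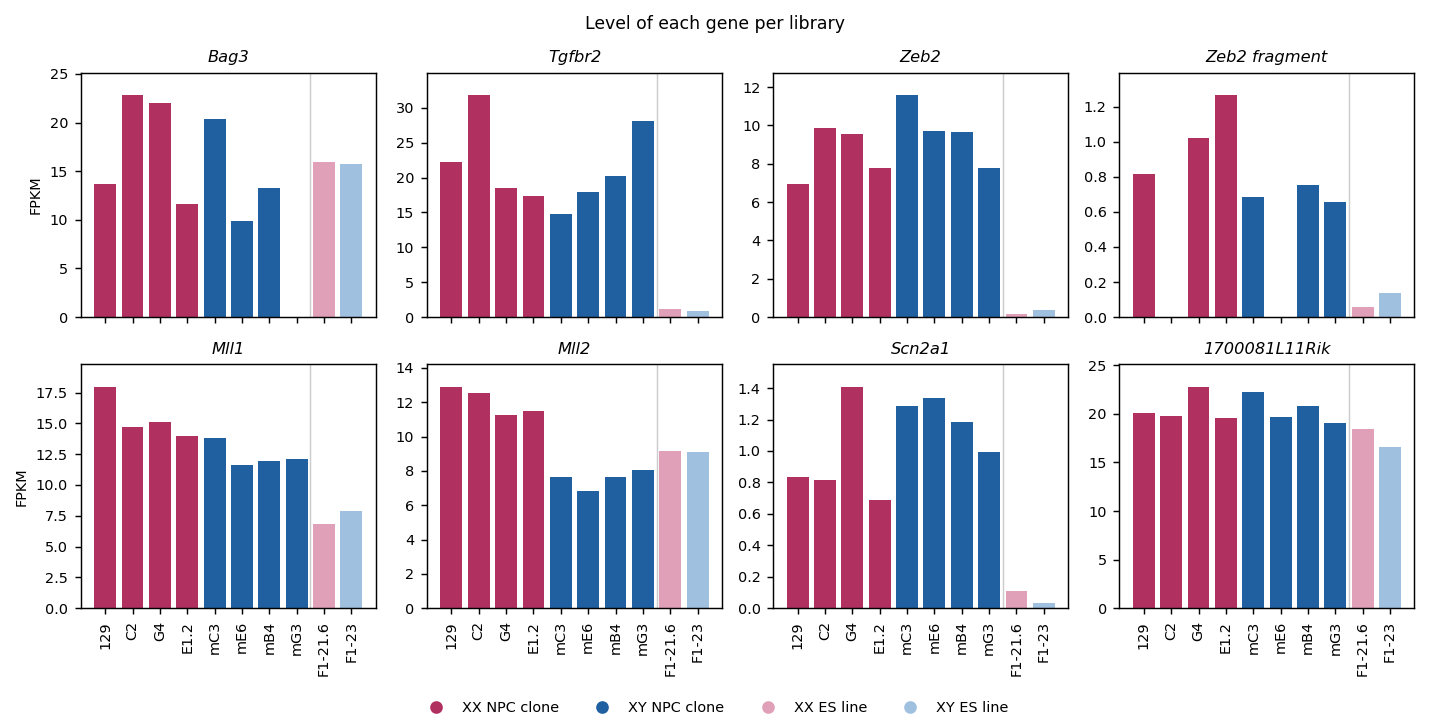
FPKM (vertical axes, each starting at 0 with its own scale) of the 8 rows in the 8 NPC clones and the 2 ES lines, with 1 library per bar. Tgfbr2, Zeb2, Scn2a1 and Mll1 are higher in every NPC clone than in both ES lines, Bag3 is nearly absent in mG3, and the 4 XX clones of Mll2 lie above the 4 XY clones.

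Among NPC clones, Mll2 was higher in XX than in XY clones. It had 12.9 (129), 12.5 (C2), 11.2 (G4) and 11.5 FPKM (E1.2) in XX clones, and 7.64 (mC3), 6.81 (mE6), 7.66 (mB4) and 8.08 FPKM (mG3) in XY clones. The log2 difference was 0.72 ± 0.07 (SE, edgeR adjusted p = 0.0173). Of 13591 genes, 1.29% were called, 0.876% higher and 0.412% lower in XX clones, and 3247 had an unadjusted p under 0.05. The call was lost without mC3, mE6 or mB4 (adjusted p = 0.0569, 0.0655 and 0.067), while the difference stayed at 0.70 to 0.75.

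Mll1 went the same way, with 15.5 ± 1.7 FPKM in XX and 12.4 ± 1.0 FPKM in XY clones (SD, n = 4 each), and did not pass (log2 0.41 ± 0.08, edgeR adjusted p = 0.0517). The other 6 rows had log2 differences from -0.37 to 0.72 and adjusted p from 0.470 to 0.837. Line, sex chromosomes and library set coincide in this comparison and cannot be told apart, and no within-set value exists because each set holds NPC clones of 1 line only.

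Other dominant disease genes were taken as a list of 81 names, 76 of them in the table. Of the 67 testable in at least 6 clones, 5 were single-allele in at least 1 clone and biallelic in another (7.46%), against 13.5% of all genes. Besides Bag3 and Tgfbr2 they included Meis2 and Zic2, and of the genes other than Bag3 and Tgfbr2 only Zic2, a zinc finger factor of forebrain development, had at least 100 counts in a clone of each kind. Its 129 share was 98.6% in G4, 10.98% in E1.2 and 38.3% to 53.3% in the other 6 clones. Its level was 3.23 FPKM in G4 and 2.41 FPKM in E1.2, against 6.29 to 8.86 FPKM in the others. Both single-allele clones thus lay below every biallelic one, as in 42.3% of the 2045 genes with both kinds of clone. This rests on 142 counts in G4 and 82 in E1.2.

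In NPC clones against ES lines, 36 of 75 tested disease genes were higher and 12 lower, and 27 did not pass, with a median log2 difference of 0.55. Over all genes tested, 33.3% were higher and 29.7% lower, with a median of 0.11. Nfia, a glial transcription factor (26.5 ± 3.2 FPKM in NPC clones (SD, n = 8) and 0.0346 and 0.0354 FPKM in the ES lines), and Sox9, a neural stem cell factor (22.2 ± 4.4 FPKM in NPC clones and 0.0947 and 0.140 FPKM in the ES lines), had among the largest differences. Mef2c, a MADS-box factor, had 6.36 ± 1.77 FPKM in NPC clones and 0.00323 and 0.0365 FPKM in the ES lines. Between XX and XY clones, 1 of 72 was higher (Mll2) and 1 lower, Acvrl1, a type I receptor of the TGF-beta family, at 0.0179 ± 0.0158 FPKM in XX and 0.0972 ± 0.0570 FPKM in XY clones (SD, n = 4 each).

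Around Tgfbr2, the list of TGF-beta and SMAD pathway genes had 36 members in the table. Of 31 testable ones, 2 were single-allele in at least 1 clone and biallelic in another (6.45%, against 13.5% of all genes), Tgfbr2 and Ltbp1, which tethers latent TGF-beta in the matrix. Ltbp1 had 129 shares of 5.64% to 17.6% in 7 clones and 39.6% in G4, while it was balanced in the ES lines, at 50.2% and 47.4%. Its level in the single-allele clones was 6.90 (C2), 2.47 (mE6), 4.35 (mB4) and 3.88 FPKM (mG3). In G4, the only biallelic clone, it was 0.999 FPKM. The single-allele clones of Ltbp1 thus lay above the biallelic one, unlike those of Bag3, though this rests on 1 biallelic clone. In NPC clones 18 of 36 tested members were higher than in ES lines and 11 lower, against 33.3% and 29.7% of all genes. The type III co-receptor gene Eng had 0.326 ± 0.230 FPKM in NPC clones (SD, n = 8), against 7.04 and 22.3 FPKM in the ES lines, and Smad7, an inhibitory SMAD, had 0.544 ± 0.172 FPKM in NPC clones, against 16.6 and 23.4 FPKM. Eng is also an endothelial and mesenchymal gene, and fibroblast markers were higher in both ES lines than in any NPC clone; their part was not tested. The BMP receptor gene Bmpr1b went the other way, with 8.85 ± 3.47 FPKM in NPC clones and 0.174 and 0.297 FPKM in the ES lines.

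None of 15 testable genes of the MLL complexes and none of 7 of the NSL complex was single-allele in 1 clone and biallelic in another, against 13.5% of all genes. Nor was any of them single-allele in any clone. The lists are short, and their difference from that share was not tested. In NPC clones against ES lines, 6 of 18 MLL complex genes were higher, Setd1a among them, and 9 lower, against 33.3% and 29.7% of all genes. The core subunits Dpy30 (46.1 ± 7.3 FPKM in NPC clones (SD, n = 8), 188 and 208 FPKM in the ES lines), Wdr5 (27.7 ± 5.2 FPKM in NPC clones, 100.4 and 133 FPKM in the ES lines) and Ash2l (44.0 ± 7.8 FPKM in NPC clones, 207 and 216 FPKM in the ES lines) were lower, while the enzyme gene Mll1 was higher. Setd1a, another enzyme of this family, was called higher by the counts (log2 2.86 ± 0.90, edgeR adjusted p = 0.0201), but its FPKM was lower, at 17.2 ± 1.6 in NPC clones and 22.6 and 25.5 in the ES lines. Its allele counts were few, 0.286 CPM in NPC clones and 0.0388 CPM in ES lines, so no direction is given.

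Of 9 NSL complex genes, 1 was higher in NPC clones (4632411B12Rik) and 5 were lower, against 33.3% and 29.7% of all genes, with a median log2 difference of -0.42. Beside Wdr5, the lower ones included Phf20 (18.4 ± 2.5 FPKM in NPC clones (SD, n = 8), 33.9 and 35.8 FPKM in the ES lines), a reader of histone marks, and Myst1, the acetyltransferase itself, with 13.8 ± 1.3 FPKM in NPC clones and 23.5 and 28.1 FPKM in the ES lines. Their scaffold 1700081L11Rik did not pass. Ogt, an X-linked glycosyltransferase that binds the complex, had 90.3 ± 6.8 FPKM in XX and 39.6 ± 7.5 FPKM in XY clones (SD, n = 4 each), with a log2 difference of 1.21 ± 0.17 (SE, edgeR adjusted p = 0.0351).

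Among the BAG family and chaperone partners of Bag3, 1 of 18 testable genes was single-allele in some clones and biallelic in others, Bag3 itself (5.56%, against 13.5% of all genes). Hspa8, the constitutive HSC70 that works with BAG3, was called for Cast in all 8 clones, with 129 shares of 0.526% to 8.70% over 102 to 220 counts, and likewise in the ES lines, at 0.463% in F1-21.6 and 0.441% in F1-23. It has processed copies elsewhere in the genome that could share its reads, so its shares are uncertain. In NPC clones 3 of 20 (Bag2, Bag5 and Cryab) were higher than in ES lines and 10 lower, against 33.3% and 29.7% of all genes. Hspb8, the small heat shock protein that binds BAG3, had 2.15 ± 2.87 FPKM in NPC clones (SD, n = 8) and 39.8 and 56.5 FPKM in the ES lines. Cryab, another small heat shock protein, had 56.7 ± 28.1 FPKM in NPC clones and 5.30 and 8.88 FPKM in the ES lines. The chaperone Hsp90aa1 had 42.7 ± 9.7 FPKM in NPC clones and 344 and 353 FPKM in the ES lines, and Hsp90ab1 had 1110 ± 272 FPKM in NPC clones and 2827 and 3145 FPKM in the ES lines. Between the lines of NPC clones 1 of 20 passed, the Hsp110-family gene Hspa4, with 82.2 ± 9.6 FPKM in XX and 120 ± 11 FPKM in XY clones (SD, n = 4 each; log2 -0.59 ± 0.10, edgeR adjusted p = 0.044).

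Of the sodium channel subunits, 10 of 15 were in the table, and 3 of 7 testable ones were single-allele in at least 1 clone and biallelic in another (42.9%, against 13.5% of all genes), Scn2b among them. Scn2b, the beta subunit that pairs with SCN2A, had 129 shares of 32.4% (129), 2.63% (C2), 21.5% (G4) and 11.1% (E1.2) in XX clones, and of 13.0% (mC3), 83.3% (mE6), 9.15% (mB4) and 0.752% (mG3) in XY clones. The ES lines were also on the Cast side, at 26.1% in F1-21.6 and 13.0% in F1-23. It was higher in XX clones, at 1.11 ± 0.31 FPKM, against 0.316 ± 0.128 FPKM in XY clones (SD, n = 4 each; log2 2.25 ± 0.31, edgeR adjusted p = 0.0342). In NPC clones against ES lines 3 of 9 passed, all higher, against 33.3% of all genes. They were Scn2a1, Scn8a, the channel of the axon initial segment (2.30 ± 1.23 FPKM in NPC clones (SD, n = 8), 0.630 and 0.966 FPKM in the ES lines), and Scn7a, a sodium sensor of glia. Scn7a had 0.766 ± 0.772 FPKM in NPC clones (SD, n = 8), so its spread between clones was as large as its mean. It had 0 counts in both ES lines, and its mean level in NPC clones was 295 times a floor of 3 counts over both lines. The lower end of its counting interval was 240, which leaves out the spread between clones.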

How the data were processed

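Expression was measured by sequencing polyadenylated RNA in 8 NPC clones and 2 ES lines, with 1 library each. Clones C2 and mC3 have repeat libraries, not analysed here. For each gene in each library, the deposited table holds whole-number allele counts, the 129 share of them as a ratio, and FPKM. Per the submitters' processing notes, SAMtools, Cufflinks 1.3.0 and TopHat 1.4.0 served with mm9; the role of each, the variants and the strand setting are not given in the sources used here. Allele counts need a strain difference in the read, so they compare libraries and not genes, and FPKM was used for levels. Pieces of 1 read are not independent, so intervals and floors (3 counts) cover counting error only.

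The members and lists were chosen with earlier results of these data known. A library was tested per gene from 20 counts, with Benjamini-Hochberg adjustment over all autosomal genes. Heterogeneity was a chi-square over the clones with at least 20 counts, divided by an overdispersion that follows depth in 20 bins. Total allele counts were tested with edgeR 4.0.16 (TMM, filterByExpr, quasi-likelihood), adjusted over all genes, with limma 3.58.1 and DESeq2 1.42.0 as alternatives (R 4.3.3). For a single clone against the other 7, the spread came from those 7, and the clone is assumed to vary like them. Single-allele and biallelic levels were set side by side as log2(FPKM + 1), without a test. Simulated counts used to check the count tests had the same spread for all genes. They do not show what the single-clone tests could detect here. Of each list, the text names up to 6 genes single-allele in 1 clone and biallelic in another with at least 100 counts in both, and up to 4 with the largest log2 change past an adjusted p of 0.05. Genes outside that rule (Meis2, Hspa8, 4632411B12Rik, Bag2, Bag5 and the neighbours of Bag3 and Tgfbr2) were named after their values were seen, and some genes are not reported here. Whether clones came from separate cultures is not given in the labels beyond their names, so p-values measure the spread between these clones. The clones of a line carry other numbers than the ES lines, and the labels tie them to an ES line only by XX or XY.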

Additional observations from a re-analysis of the deposited data

Results flagged for a closer look

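Over 31 groups of 4 clones tested for an outlying clone, 5 values stood apart from the other 3, where chance alone flags about 1 in 20 groups. The 129 share of Tgfbr2 was 98.9% in clone 129, far from 60.1% to 61.2% in the other XX clones. The 129 share of Scn2a1 was 33.3% in mC3, against 43.8% to 45.4% in the other XY clones. For 1700081L11Rik the 129 share was 48.5% in C2, against 45.4% to 45.9% in the other XX clones, and log2(FPKM + 1) was 4.57 in G4, against 4.37 to 4.398 in the other XX clones. The short Zeb2 row had a log2(FPKM + 1) of 2.9e-05 in mE6, against 0.73 to 0.81 in the other XY clones, although mE6 had 140 allele counts there, so this FPKM is not read as a level.

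Mll2 moved in opposite directions in the 2 lines. On the log2(FPKM + 1) scale the 4 XX clones were all above F1-21.6, by 0.36 on average (0.27 to 0.46), while the 4 XY clones were all below F1-23, by -0.24 on average. The interaction test, added after the data had been seen, did not pass (edgeR adjusted p = 0.154). The XX clones are of another library set than F1-21.6, while the XY clones share the set of F1-23.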

How the results depend on the processing

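The share of genes with a level difference of -0.5 or less (30.6%) was 48.7% with a pseudocount of 0.1, 56.0% on CPM, 38.0% where 1 allele had to reach 95%, 46.3% with a minimum of 100 counts, and 27.2% to 32.7% without single clones. For Bag3 itself the difference kept its sign under every alternative run (-0.90 to -0.73), and so did that of Tgfbr2 (0.18 to 0.27). The calls of XX against XY clones (119 higher, 56 lower) depend on the tool and the libraries: DESeq2 called 1107 higher and 840 lower, limma on log2(FPKM + 1) 362 lower, and leaving out 1 clone left 7 to 323 higher and 0 to 173 lower. The calls of single clones against the others (209 in all) were 2769 with DESeq2, 428 with limma and 23 to 251 without single libraries, with 23 when clone 129 was left out.

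Signs that turned belong to differences that did not pass in the design reported. Mll2 in NPC clones against ES lines was -0.01 with DESeq2 size factors (-0.0117) and with DESeq2 (-0.0114), -0.30 in the shared library set, and -0.27 to 0.42 without single libraries, and it passed as higher without F1-23. Bag3 in NPC against ES was -0.56 to 0.23 without single libraries, with 0.04 when mG3 was left out. In XX against XY clones, the short Zeb2 row was 0.19 with limma on its FPKM, and Scn2a1 was -0.51 to 0.0277 without single clones. Bag3 in mE6 was 0.68 with limma and -0.82 to 0.52 without single clones, and in mB4 -0.12 without the line term and -0.17 to 1.48 without single clones. Tgfbr2 in clone 129 was -6.65e-05 with DESeq2 size factors, -7.24e-05 with DESeq2, -0.000462 without a filter, and -0.16 to 0.23 without single clones. The causes were not tested. Clones were tied to an ES line only by the XX or XY label, which entered the NPC against ES test as the line covariate. No closer pairing was possible, because each library is of another clone or line. Scn2a1 and the short Zeb2 row, with at most 396 counts per clone, limit what can be said of their allele shares.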
